A study of Mus musculus with 2 samples.

Results

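The nuclei described here are adipocytes of mouse visceral fat that carried transcripts of Cidea, Esrrg or Ucp1, not always of all 3, and they are called members. A nucleus was kept when it had more than 500 genes, more than 1000 unique molecular identifiers (UMIs, counted transcripts) and less than 15% of its UMIs from mitochondrially encoded genes. It was called an adipocyte when Plin1, Cidec, Pde3b, Acsl1, Dgat2, Pnpla2, Adrb3 and Aqp7 summed to at least 10 UMIs and Upk3b, Msln, Ptprb, Pecam1, Col3a1 and Cybb, markers of other cell types, to at most 2. A member was an adipocyte with at least 3 UMIs summed over Cidea, Esrrg and Ucp1. Of 15058 kept nuclei 6987 were adipocytes, and 444 of these were members. Another 5486 adipocytes had 0 UMIs of the 3 choosing genes and are called zero adipocytes, and 1057 had 1 or 2 UMIs.

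Both libraries came from gonadal (visceral, VAT) fat of female C57BL/6J mice aged 2 months, with 1 library per mouse and 2 mice in all. Nuclei of the whole tissue were captured with the Singleron GEXSCOPE kit, as the extraction text and the methods of the study say, while a description label names 10x Genomics and the cell type label names adipocytes. The study asked how fat of different sites changes with age, and these libraries hold young visceral fat, so no comparison of ages or sites is made. Replicate 1 had 2833 kept nuclei with 8466237 UMIs, and replicate 2 had 12225 kept nuclei with 48068273 UMIs. The libraries also differed in their median mitochondrial share, which was 6.20% of UMIs in kept nuclei of replicate 1 and 0.621% in those of replicate 2. They shared 85 called barcodes, of which 27 were kept in both, and no member had a barcode that was a member in the other library. Doublets were not removed. The p-values below measure only the spread between these 2 samples.

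Brown and beige adipocytes burn fuel to make heat. Ucp1 encodes the inner-membrane protein that lets protons bypass ATP synthesis, Cidea encodes a lipid-droplet protein that is abundant in brown fat, and Esrrg encodes an orphan nuclear receptor of the estrogen-related family that acts on genes of mitochondrial energy metabolism. Gonadal fat of mice is a typical white depot, in which such cells are scarce without cold or adrenergic stimulation.

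The choosing genes were unevenly spread over the members, and their values, on which the members were selected, are given as description. A UMI of Cidea was found in 360 members (81.1%), of Esrrg in 366 (82.4%) and of Ucp1 in 145 (32.7%). Cidea and Esrrg without Ucp1 was the most frequent combination, with 166 members (37.4%), followed by all 3 genes with 118 (26.6%), Esrrg only with 70 (15.8%) and Cidea only with 63 (14.2%). Ucp1 with Cidea alone was seen in 13 members, Ucp1 with Esrrg alone in 12 and Ucp1 only in 2. Membership was therefore carried by Cidea and Esrrg in most nuclei, and the gene that defines the thermogenic cell was read in a minority. Members of replicate 1 held a UMI of Cidea in 92.5%, of Esrrg in 82.5% and of Ucp1 in 36.3% of nuclei, and those of replicate 2 in 78.6%, 82.4% and 31.9%. The summed count had a median of 5 UMIs in replicate 1 and 6 in replicate 2 and reached 35 and 79 UMIs. Exactly 3 UMIs, the lowest count that makes a member, were found in 110 members (24.8%), and 10 or more in 148 (33.3%).

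Members made up 5.17% of the adipocytes of replicate 1 (80 of 1546, exact Clopper-Pearson 95% interval 4.12% to 6.40%) and 6.69% of those of replicate 2 (364 of 5441, 6.04% to 7.39%). The intervals here and below cover counting error only. The share rose with the depth of the nucleus. In replicate 1 it was 0.969% in the lowest tercile of adipocytes by total UMIs, 5.05% in the middle tercile and 9.51% in the highest tercile, and in replicate 2 it was 2.43%, 5.63% and 12.0%. With each adipocyte thinned to 1000 UMIs, 1.29% (0.792% to 1.99%) of replicate 1 and 1.32% (1.04% to 1.66%) of replicate 2 still reached 3 UMIs. The share is thus a count at a given depth, and the share of cells that express the genes was not measured.

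Free RNA can give a nucleus a UMI of a gene that it does not express, so the choosing genes were also read in non-adipocyte nuclei, those with at least 5 UMIs of the markers of other cell types and at most 3 of the adipocyte genes. There were 185 such nuclei in replicate 1 and 1346 in replicate 2, with median depths of 2108 and 2145 UMIs against 3026 and 5222 UMIs in adipocytes, and all were thinned to 1000 UMIs. Cidea was found in 4.08% (3.15% to 5.18%) and 3.38% (2.92% to 3.90%) of adipocytes in replicates 1 and 2 and in 0% (0% to 1.97%) and 0.817% (0.409% to 1.46%) of non-adipocyte nuclei. Cidea was thus more frequent in adipocytes than in non-adipocyte nuclei of both libraries. Esrrg was found in 3.88% (2.97% to 4.97%) and 5.94% (5.32% to 6.60%) of adipocytes and in 4.32% (1.89% to 8.34%) and 5.50% (4.34% to 6.85%) of non-adipocyte nuclei, with intervals that overlap. Whether its UMIs in non-adipocyte nuclei come from free RNA or from expression was not tested. Ucp1 was found in 0.970% (0.544% to 1.60%) and 0.901% (0.667% to 1.19%) of adipocytes and in 0% (0% to 1.97%) and 0.520% (0.209% to 1.07%) of non-adipocyte nuclei, with intervals that overlap. After thinning, which leaves few UMIs of Ucp1, the intervals of Esrrg and Ucp1 thus did not separate all adipocytes from non-adipocyte nuclei. With all UMIs, Ucp1 was in 3.49% (2.63% to 4.53%) and 2.92% (2.49% to 3.41%) of adipocytes. In non-adipocyte nuclei it was in 0% (0% to 1.97%) and 0.817% (0.409% to 1.46%), with no overlap of intervals within a library. Adipocytes are deeper in that reading, and the part of depth was not tested. What the nuclei that carry the choosing genes have in common is read below from genes that did not choose these nuclei.

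**Figure D1:**
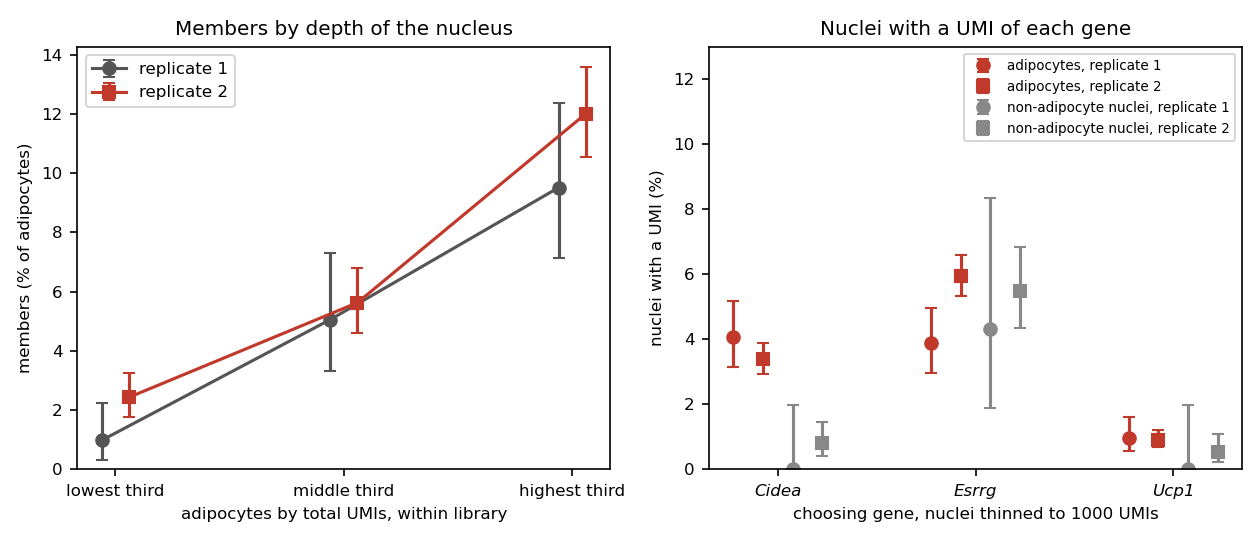
The left panel plots members as a percent of adipocytes in terciles by total UMIs within each library, and the right panel the percent of nuclei with a UMI of Cidea, Esrrg or Ucp1 after thinning to 1000 UMIs, with 95% Clopper-Pearson intervals as bars. The share of members rises from 0.969% to 9.51% in replicate 1 and from 2.43% to 12.0% in replicate 2, and Esrrg, unlike Cidea, is as frequent in non-adipocyte nuclei as in adipocytes.

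To compare members with zero adipocytes at equal depth, each member was paired within its library with the zero adipocyte nearest to it in total UMIs, within 10%. This left 78 pairs in replicate 1, with 2 members unpaired, and 364 pairs in replicate 2. Median depth was 4720 UMIs in paired members and 4717.5 in their partners in replicate 1, and 7456 in both classes of replicate 2, where all members had been 4773.5 and 7456 and all zero adipocytes 2866.5 and 5041. The median mitochondrial share of the paired nuclei was higher in members, at 4.77% against 3.65% in replicate 1 and 0.261% against 0.213% in replicate 2. Before pairing it was lower in members, at 4.94% against 5.10% and 0.261% against 0.290%. UMIs were summed per library and class and tested with edgeR's quasi-likelihood F test with the library as a block, with p-values adjusted by Benjamini-Hochberg over all genes tested. Levels are given as UMIs per 1000000 UMIs of the summed class (CPM), and folds are log2 ratios of members over zero adipocytes.

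In these pairs the choosing genes stood by construction at 0 CPM in zero adipocytes, and in members at 749 and 475 CPM for Cidea, 546 and 654 CPM for Esrrg and 148 and 140.3 CPM for Ucp1 in replicates 1 and 2. The adipocyte genes of the rule were present in both classes. Plin1, which coats the lipid droplet, was at 906 and 941 CPM in members and zero adipocytes of replicate 1 and at 952 and 902 CPM in replicate 2. Adrb3, the beta-3 adrenergic receptor of adipocytes, was at 477 and 922 CPM in replicate 1 and 564 and 999.8 CPM in replicate 2, and Cidec, the droplet-fusion protein of white fat, at 706 and 1139 CPM and at 622 and 874 CPM. Acsl1 and Dgat2, of fatty acid activation and triglyceride synthesis, were also lower in members of both libraries, Acsl1 at 1178 and 2116 CPM and at 2134 and 2379 CPM, and Dgat2 at 1819 and 2434 CPM and at 1139 and 1373 CPM. Aqp7, the glycerol channel, was higher in both, at 59.6 and 38.2 CPM and at 46.5 and 30.4 CPM, as was Pde3b, the insulin-responsive phosphodiesterase, at 1142 and 989 CPM and at 2280.5 and 1459 CPM. Pnpla2, the triglyceride lipase, was at 310.0 and 244 CPM in replicate 1 and 155 and 152 CPM in replicate 2. Members thus held transcripts of all 8 adipocyte genes, of which Adrb3, Cidec, Acsl1 and Dgat2 were lower and Aqp7, Pde3b and, by little in replicate 2, Pnpla2 higher in both libraries by CPM, and these genes, having been used for the choice, were not tested.

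How the choosing genes occur together was described by choosing nuclei on 1 of them at a time. Adipocytes with at least 2 UMIs of Cidea were paired by depth with those that had 0, giving 77 and 302 pairs. Esrrg (ENSMUSG00000026610, GRCm39 chr1:187340988-187947082) was at 449.8 CPM in the Cidea-chosen nuclei of replicate 1 and 7.40 CPM in their partners, and at 550.4 and 18.5 CPM in replicate 2. The log2 fold was 5.01 (SE 0.27, higher in 2 of 2 libraries). Ucp1 (ENSMUSG00000031710, chr8:84016647-84025085) was at 126 and 4.94 CPM in replicate 1 and 137 and 2.47 CPM in replicate 2, a log2 fold of 5.47 (SE 0.41, 2 of 2 libraries). Esrrg and Ucp1 are genes of the rule, so these values are given as description and no conclusion is drawn from them. In this comparison 3.09% of 10170 genes tested were called higher.

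The reverse choice, by at least 2 UMIs of Esrrg, gave 62 and 375 pairs and called 2.61% of 10356 genes higher. Cidea was at 587 and 23.8 CPM in Esrrg-chosen nuclei and their partners in replicate 1 and at 359 and 18.1 CPM in replicate 2 (log2 fold 4.32, SE 0.24, 2 of 2 libraries). Ucp1 was at 148 and 14.9 CPM and at 130.5 and 2.17 CPM (log2 ratios of 3.28 and 5.84 within the libraries, SE of the fitted fold 0.39, 2 of 2 libraries). Cidea and Ucp1 are genes of the rule too, so these values do not bear on the share of Esrrg over all adipocytes. These choices share nuclei with each other and with the members, so their values are set side by side only. Prdm16, a cofactor that maintains brown-fat identity, had log2 folds of 3.13 in Cidea-chosen and 2.82 in Esrrg-chosen nuclei, and Acot11, an acyl-CoA thioesterase of brown fat, 4.14 and 3.55. Tshr, the thyrotropin receptor, fell by 1.85 and by 1.52 on the log2 scale. Nuclei with both Cidea and Esrrg enter both choices, so a like direction is partly built in and is not counted as further evidence. Cidea, Esrrg and Ucp1 are the genes of the rule, so their readings in each other describe how they occur together and are not used as support for the label.

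Across the transcriptome, 10494 genes were tested between members and their partners, of which 366 were called higher (3.49%) and 352 lower (3.35%) at an adjusted p under 0.05. Of these, 340 of the higher and 338 of the lower genes had log2 ratios of the same direction in both libraries. Genes with 0 UMIs in a class of a library have no ratio there and are not in these counts, whatever their direction. By the fitted fold, 232 of the higher and 195 of the lower genes differed by at least 1 on the log2 scale. The median log2 fold of all genes tested was -0.01, which the TMM scaling sets near 0. The number of calls depended on the model, with 118 higher and 117 lower by DESeq2 and 44 and 13 without the library as a block. Each of the 366 and 352 genes had the same sign in both of these fits. Pairing that also used the mitochondrial share gave 352 higher and 320 lower.

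Among the 15 leading genes higher in members, the most abundant was Ntrk3 (ENSMUSG00000059146, chr7:77825707-78387760), the receptor for neurotrophin-3. It was at 1268 CPM in members and 45.4 CPM in zero adipocytes of replicate 1 and at 1076 and 65.8 CPM in replicate 2 (log2 fold 4.21, SE 0.19, adjusted p = 8.0e-99, 2 of 2 libraries). Acot11 (ENSMUSG00000034853, chr4:106601752-106662195) was at 267 and 14.3 CPM in replicate 1 and 220.4 and 10.1 CPM in replicate 2 (log2 fold 4.34, SE 0.28, adjusted p = 9.6e-51, 2 of 2 libraries). Prdm16 (ENSMUSG00000039410, chr4:154400581-154721625) was at 255 and 9.55 CPM in replicate 1 and 208 and 25.2 CPM in replicate 2 (log2 fold 3.30, SE 0.25, adjusted p = 4.2e-36, 2 of 2 libraries). For each of these 3 genes the lower member value was several times the higher zero value. They were picked by fold and direction, so this spacing is partly built in and is no further evidence. Otop1, a proton channel, was at 78.7 and 4.78 CPM in replicate 1 and 38.8 and 1.40 CPM in replicate 2 (log2 fold 4.46, SE 0.53, adjusted p = 1.2e-14, 2 of 2 libraries). Cdh2, which encodes N-cadherin, had a log2 fold of 4.88 (adjusted p = 4.9e-18, 2 of 2 libraries) and Col27a1, a fibrillar collagen chain, of 4.58 (adjusted p = 1.6e-32, 2 of 2 libraries), both from levels under 6 CPM in zero adipocytes. The log2 ratio of Cdh2 was 3.07 in replicate 1 and 5.47 in replicate 2. All 6 of these genes were thus read at low levels in zero adipocytes.

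Metabolic enzymes were also among the leading genes. Me3, the mitochondrial malic enzyme, was at 26.2 and 0 CPM in replicate 1 and 48.6 and 2.45 CPM in replicate 2, and Acss1, the mitochondrial acetyl-CoA synthetase, at 83.5 and 7.16 CPM in replicate 1 and 79.8 and 5.95 CPM in replicate 2. Their log2 folds were 4.36 and 3.64 (adjusted p = 3.1e-12 and 7.0e-19, each in 2 of 2 libraries). These enzymes make pyruvate and acetyl-CoA inside mitochondria, and both had low levels in zero adipocytes. Also among them were Sorcs2, a sorting receptor, Myom1, a sarcomeric M-band protein, Zfp827, a zinc-finger protein, Gnao1, a G-protein subunit, Pdgfd, a platelet-derived growth factor, and Osbpl6, an oxysterol-binding protein, with log2 folds from 3.01 to 3.47. Libraries differed for Myom1, with log2 ratios of 1.44 in replicate 1 and 3.84 in replicate 2. For Sorcs2 these were 4.37 and 3.13, and for Osbpl6 4.93 and 2.82. Pdgfd, a secreted ligand, was at 322 and 31.0 CPM in replicate 1 and 251 and 31.1 CPM in replicate 2 (log2 fold 3.07, SE 0.23, adjusted p = 3.8e-37, 2 of 2 libraries).

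Among the 15 leading genes lower in members, the most abundant was Aldh1a1 (chr19:20469539-20622825), which makes retinoic acid from retinaldehyde. It was at 71.5 and 387 CPM in replicate 1 and 191 and 673 CPM in replicate 2 (log2 fold -2.04, SE 0.18, adjusted p = 2.8e-25, lower in 2 of 2 libraries). Nnat, an imprinted gene for a membrane proteolipid, was at 42.9 and 227 CPM in replicate 1 and 17.5 and 74.5 CPM in replicate 2 (log2 fold -2.24, SE 0.27, adjusted p = 4.0e-14, 2 of 2 libraries). Oxtr, the oxytocin receptor, was at 31.0 and 146 CPM in replicate 1 and 16.8 and 53.9 CPM in replicate 2 (log2 fold -1.91, SE 0.30, adjusted p = 2.5e-08, 2 of 2 libraries). Within each library members were several times lower in these genes than their partners. The complement genes Masp1 and C6 had log2 folds of -2.52 and -2.51 and the protease inhibitor Serpina3n of -2.11 (adjusted p = 2.9e-07, 2.4e-05 and 0.00109, each in 2 of 2 libraries). The other 9 were Plagl1, an imprinted transcription factor, Tmem150c, Slc16a12, Boc, a hedgehog co-receptor, Cers6, a ceramide synthase, Elmo1, Slc2a13, a myo-inositol transporter, Rgs7bp and Apba1, with log2 folds from -2.76 to -1.88. Differences were larger in replicate 1 for Masp1, Serpina3n, Slc16a12, Elmo1 and Rgs7bp. Their log2 ratios there were -3.34, -4.11, -3.79, -3.88 and -3.45, against -2.36, -1.68, -2.13, -1.78 and -1.60 in replicate 2. Apba1 was not called by DESeq2, and Plagl1, Tmem150c, C6, Serpina3n and Oxtr were not called with a mitochondrial limit of 5%, which kept 40 pairs in replicate 1.

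**Figure D2:**
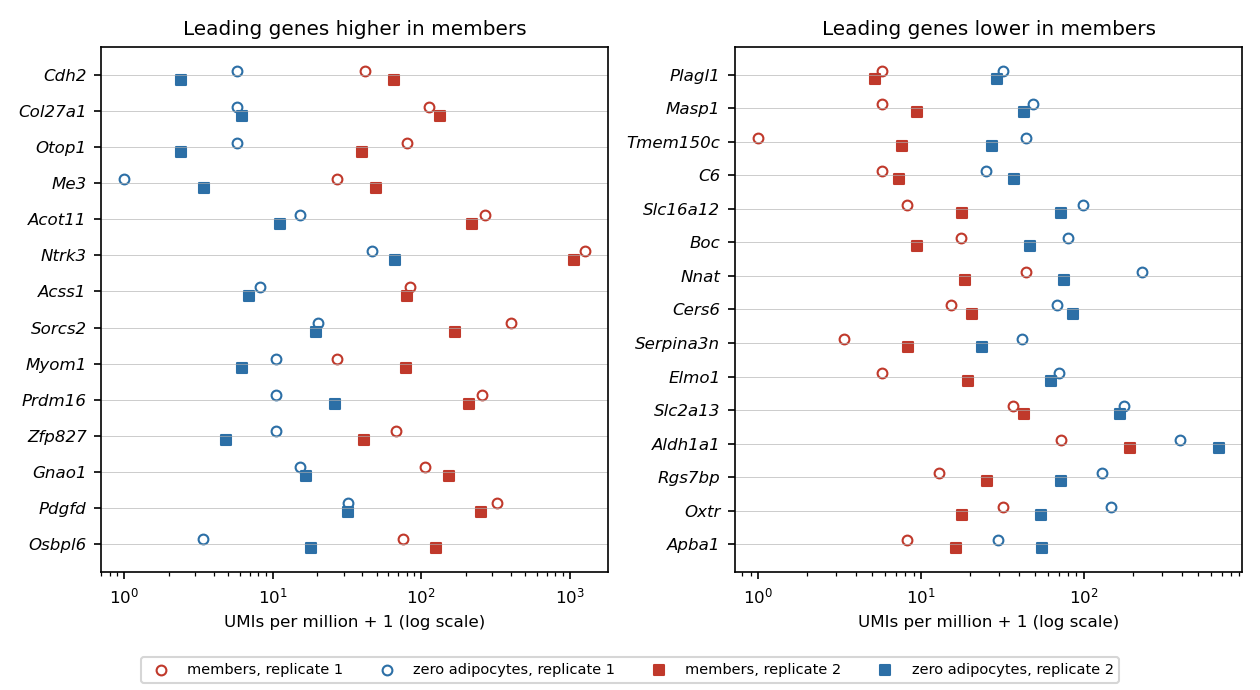
Each point is the level of a gene in CPM plus 1 (log scale) in members or paired zero adipocytes of 1 library, for leading genes named in the text in each direction. Ntrk3 lies above 1000 CPM in members of both libraries and below 100 CPM in zero adipocytes, and Aldh1a1 runs the other way.

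The label was read against a list of 42 genes of the thermogenic programme, without the choosing genes, of which 32 were tested. Of these 26 were called higher and 0 lower, with a median log2 fold of 1.86, against 3.49% and 3.35% of all genes and a median of -0.01. At unadjusted p under 0.05 none was lower either, and DESeq2 called 16 higher and 0 lower and the fit without the block 8 higher and 0 lower. Over all genes, DESeq2 called 118 higher and 117 lower and the fit without the block 44 and 13. In the reported fit, 1582 genes had an unadjusted p under 0.05 in either direction. These counts and the shares of 3.49% and 3.35% are the background for each list below. The summed level of the thermogenic list was 5823 CPM in members and 2610.4 CPM in zero adipocytes of replicate 1 and 7083 and 3604 CPM in replicate 2. The list was higher in members of each library, most of its genes took part, and Cpt1b, listed here for its role in muscle-type fatty acid entry, had 0 UMIs.

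Upstream regulators of the programme, named after their values were seen, were among the called genes. Ppargc1a, the coactivator of mitochondrial biogenesis, was at 200.3 and 57.3 CPM in replicate 1 and 262 and 87.8 CPM in replicate 2 (log2 fold 1.60, SE 0.21, adjusted p = 4.5e-12, 2 of 2 libraries). Dio2, the deiodinase that activates thyroid hormone, was at 11.9 and 4.78 CPM in replicate 1 and 126 and 10.5 CPM in replicate 2 (log2 fold 3.38, SE 0.38, adjusted p = 3.7e-16, 2 of 2 libraries), so that its difference came mostly from replicate 2. Ppara, a fatty acid-activated nuclear receptor, was at 227 and 26.3 CPM in replicate 1 and 434 and 91.3 CPM in replicate 2 (log2 fold 2.38, SE 0.21, adjusted p = 8.9e-27, 2 of 2 libraries). Ebf2, a selector of brown precursor identity, had a log2 fold of 1.66 and Ppargc1b of 0.80 (adjusted p = 6.1e-18 and 1.3e-04, each in 2 of 2 libraries). Ebf3, a relative of Ebf2 in the same list, was not called (log2 fold 0.37, adjusted p = 0.289). These genes were picked for their values and add nothing to the count over the list, and Ppargc1a, Ppargc1b, Dio2, Ebf2 and Ppara were not called without the library as a block.

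The effectors of the list with the largest folds were rare transcripts. Fabp3, the heart-type fatty acid carrier, had 30 UMIs in members and 0 in zero adipocytes, at least 10.0-fold higher with a floor of 3 counts over both libraries. Slc27a2, a very-long-chain acyl-CoA synthetase, had 61 UMIs against 1, a ratio of 61.0 (95% counting interval 10.5 to 2448). Slc36a2, an amino acid transporter used as a brown-fat surface marker, was at 596 and 635 CPM in replicate 1 and 841 and 762 CPM in replicate 2 (log2 fold 0.00, SE 0.16, adjusted p = 1). Slc36a2 was abundant in both classes, so this marker did not separate them.

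Of the 19 genes of creatine and calcium cycling, which can burn ATP without Ucp1, 9 were tested. Of these, 2 (22.2%, against 3.49% of all genes) were called higher and 0 lower by edgeR (4 and 0 at unadjusted p under 0.05, 2 and 0 by DESeq2, median log2 fold 0.36). Both are calcium release channels of the endoplasmic reticulum. Itpr2 was at 432 and 69.3 CPM in replicate 1 and 706 and 89.2 CPM in replicate 2 (log2 fold 2.84, SE 0.20, adjusted p = 6.0e-44, 2 of 2 libraries) and Itpr1 at 629 and 143 CPM in replicate 1 and 602 and 281 CPM in replicate 2 (log2 fold 1.45, SE 0.17, adjusted p = 1.2e-14, 2 of 2 libraries). Atp2a2, the calcium pump that refills the same store, was not called (log2 fold 0.36, adjusted p = 0.369). The 2 called genes of this list were thus release channels, too few to describe the list.

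Heat production draws on fatty acid oxidation, and 13 of 22 tested genes of that pathway were called higher and 0 lower by edgeR (0 lower also at unadjusted p under 0.05 and by DESeq2), with a median log2 fold of 0.77 and all 22 above 0. The pathway summed to 4013 CPM in members and 1767 CPM in zero adipocytes of replicate 1 and 3602 and 2116 CPM in replicate 2. Acaa2, the thiolase of the last step, was at 179 and 14.3 CPM in replicate 1 and 97.6 and 29.4 CPM in replicate 2 (log2 fold 2.15, SE 0.27, adjusted p = 6.5e-13, 2 of 2 libraries). The subunits of the trifunctional protein, Hadhb and Hadha, had log2 folds of 1.80 and 1.58, and Acadl, the long-chain dehydrogenase, of 1.35 (adjusted p = 3.2e-14, 1.3e-13 and 7.5e-10, each in 2 of 2 libraries). The steps of the mitochondrial spiral from dehydrogenase to thiolase were thus all represented. DESeq2 called 6 and the fit without the block 2 of these genes.

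Downstream of oxidation, 10 of 26 genes of pyruvate use and the citric acid cycle were called higher and 1 lower (median log2 fold 0.61), with 6 and 1 by DESeq2 and 2 and 0 without the block (0 lower also at unadjusted p under 0.05). The 1 lower gene was 3.85% of the list, near the 3.35% of all genes. Ogdh, of the oxoglutarate dehydrogenase, was at 322 and 83.6 CPM in replicate 1 and 328 and 129 CPM in replicate 2 (log2 fold 1.50, SE 0.19, adjusted p = 1.1e-12, 2 of 2 libraries), and Idh3a, of the isocitrate dehydrogenase, had a log2 fold of 1.34 (adjusted p = 1.2e-07, 2 of 2 libraries). Pdk4, which shuts pyruvate out of the cycle by phosphorylating pyruvate dehydrogenase, was higher by 2.10 (adjusted p = 5.2e-11, 2 of 2 libraries), and Pcx, pyruvate carboxylase, was the gene called lower (log2 fold -0.57, SE 0.15, adjusted p = 0.00352, 2 of 2 libraries). Citrate synthase, Cs, was not called (log2 fold 0.26, adjusted p = 0.542), nor were 14 other genes of the list.

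Of the nuclear-encoded genes of the respiratory chain, 89 were tested, and 12 were called higher and 0 lower (1 lower at unadjusted p under 0.05, 0 by DESeq2), with a median log2 fold of 0.53. The summed level was 9866 CPM in members and 6030.4 CPM in zero adipocytes of replicate 1 and 5143 and 3713 CPM in replicate 2. Cox7a1, the muscle and brown-fat isoform of a cytochrome oxidase subunit, was at 26.2 and 0 CPM in replicate 1 and 11.2 and 1.40 CPM in replicate 2 (log2 fold 3.40, SE 0.78, adjusted p = 4.0e-04, 2 of 2 libraries), and Cox8b, its counterpart for another subunit, at 64.4 and 16.7 CPM in replicate 1 and 21.0 and 3.85 CPM in replicate 2 (log2 fold 2.19, SE 0.48, adjusted p = 2.2e-04, 2 of 2 libraries). The tissue-specific isoforms led, while the chain as a whole moved by less and rested on many small differences. DESeq2 called 0 of the 89 higher, with 12 at unadjusted p under 0.05, the fit without the block 0, with 7, and the mitochondrial limit of 5% 0 of 85, with 19.

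Of the list of mitochondrial biogenesis and dynamics none was called, with 0 of 21 higher and 0 lower by edgeR, 3 higher and 0 lower at unadjusted p under 0.05, 0 by DESeq2 and a median log2 fold of 0.37, with 18 of the 21 above 0. Of these genes 1 was called higher with pairing that also used the mitochondrial share, 1 of 20 after thinning and 3 without matching for depth. Dnm1l, the fission dynamin, had a log2 fold of 0.28 (adjusted p = 0.596) and Immt, the cristae scaffold, of 0.24 (adjusted p = 0.719). Of 37 mitochondrially encoded genes 11 were tested, and mt-Co1, a catalytic subunit of cytochrome oxidase, was the 1 called higher, at 3476 and 2546 CPM in replicate 1 and 144 and 89.6 CPM in replicate 2 (log2 fold 0.52, SE 0.16, adjusted p = 0.0157, 2 of 2 libraries). The mt-Co1 call was lost with DESeq2, without the block and with pairing that also used the mitochondrial share. With so few genes in the list, a count of 0 is near what the share over all genes gives, and Ppargc1a, held in the thermogenic list, was called higher.

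Lipid synthesis, a main activity of white adipocytes, had summed levels that ran in opposite directions in the libraries. The list of de novo lipogenesis stood at 70975 CPM in members and 66268 CPM in zero adipocytes of replicate 1. In replicate 2 it stood at 52885 and 58931 CPM. Of 22 genes of de novo lipogenesis 1 was called higher (4.55%, near the 3.49% of all genes) and 3 lower (median log2 fold -0.17). Acacb, the acetyl-CoA carboxylase at the mitochondrial surface whose product restrains fatty acid entry, was at 2349 and 874 CPM in replicate 1 and 2994 and 2025 CPM in replicate 2 (log2 fold 0.93, SE 0.15, adjusted p = 9.8e-08, 2 of 2 libraries). Acaca, the cytosolic form that supplies synthesis, was at 13846 and 15369 CPM in replicate 1 and 15719 and 18663 CPM in replicate 2 (log2 fold -0.23, SE 0.15, adjusted p = 0.544) and was not called. The NADPH sources G6pdx and Me1 and the lipase-family gene Pnpla3 were lower, with log2 folds of -0.69, -0.57 and -0.50 (adjusted p = 0.025, 0.00356 and 0.0157, each in 2 of 2 libraries), of which DESeq2 called Me1. The carboxylase isoforms thus differed in their calls, though the difference between them was not tested.

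In triglyceride synthesis 4 of 12 genes were called higher and 2 lower (median log2 fold 0.39), with 2 and 2 by DESeq2. Genes that supply the glycerol backbone were among the higher ones, with Gk, glycerol kinase, at 42.9 and 7.16 CPM in replicate 1 and 236 and 33.6 CPM in replicate 2 (log2 fold 2.74, SE 0.28, adjusted p = 1.7e-19, 2 of 2 libraries), and Pck1, which helps make it from pyruvate, at 277 and 217 CPM in replicate 1 and 393 and 96.2 CPM in replicate 2 (log2 fold 1.33, adjusted p = 2.3e-10, 2 of 2 libraries). The Pck1 difference came mostly from replicate 2, with a log2 ratio of 1.98 against 0.33 in replicate 1. In replicate 1 Gk rested on 18 UMIs in members and 3 in zero adipocytes. Over all adipocytes of replicate 1, Gk stood at 18.8 CPM with 0 choosing UMIs. It stood at 71.2 CPM with 3 or 4, 12.5 with 5 to 9 and 33.4 with 10 or more, an uneven course. In replicate 2 these classes stood at 30.7, 59.9, 148 and 433 CPM. The acyltransferases of the first step split, with Gpat4 at a log2 fold of 1.02 and Gpat3 at -1.30 (adjusted p = 5.1e-05 and 6.5e-11, each in 2 of 2 libraries). Of the droplet and lipolysis genes 2 of 10 were called higher and 0 lower by edgeR (3 lower at unadjusted p under 0.05, and 0 in either direction by DESeq2), with a median of -0.09. Plin5, the droplet coat of oxidative tissues, was at 50.1 and 23.9 CPM in replicate 1 and 38.5 and 5.25 CPM in replicate 2 (log2 fold 2.17, SE 0.42, adjusted p = 1.2e-05, 2 of 2 libraries), while Lipe, the hormone-sensitive lipase, was at 1273 and 1256 CPM in replicate 1 and 1069 and 1038 CPM in replicate 2 and was not called (adjusted p = 1). Lipe was thus close to its level in zero adipocytes in both libraries and the droplet coat was not. Pck1, Gpat4 and Plin5 were not called by DESeq2.

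Of the receptors and cAMP signalling genes that control lipolysis, 4 of 19 tested were called higher and 4 lower, 11 were not called and the median log2 fold was 0.23. Adrb1, the beta-1 adrenergic receptor, was at 76.3 and 14.3 CPM in replicate 1 and 43.4 and 10.8 CPM in replicate 2 (log2 fold 2.07, SE 0.37, adjusted p = 1.3e-06, 2 of 2 libraries). Tshr (ENSMUSG00000020963, chr12:91351337-91517124) was at 432 and 1524 CPM in replicate 1 and 453 and 1410.2 CPM in replicate 2 (log2 fold -1.76, SE 0.16, adjusted p = 3.3e-25, lower in 2 of 2 libraries). Ghr, the growth hormone receptor, was at 4893 and 13138 CPM in replicate 1 and 9407 and 20620 CPM in replicate 2 (log2 fold -1.31, SE 0.15, adjusted p = 5.4e-15, lower in 2 of 2 libraries). Tshr and Ghr, abundant hormone receptors of white adipocytes, were thus lower in members, while Adrb1, from a low level, was higher. Adcy3, an adenylyl cyclase, was higher (log2 fold 1.52, adjusted p = 2.5e-04, 2 of 2 libraries) and Npr3, the natriuretic peptide clearance receptor, lower (log2 fold -1.18, adjusted p = 1.4e-08, 2 of 2 libraries). The log2 ratio of Adcy3 was 3.25 in replicate 1 and 1.11 in replicate 2. DESeq2 called 2 and 3 genes of this list and did not call Adcy3, and the fit without the block called 0 higher (4 at unadjusted p under 0.05) and 1 lower.

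In insulin signalling and glucose use 4 of 18 genes were called higher and 0 lower by edgeR (0 lower also at unadjusted p under 0.05), with a median log2 fold of 0.14, and DESeq2 called 0 in either direction. The 4 were glycolytic, namely Ldhb, Pkm, Aldoa and Hk2, with log2 folds of 1.48, 0.69, 0.60 and 0.50 (adjusted p = 0.0103, 0.00579, 0.00579 and 0.0226, each in 2 of 2 libraries). Pik3r1, of the insulin receptor pathway, was not called (log2 fold -0.29, adjusted p = 0.357).

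White adipocyte genes and adipokines leaned lower, with 7 of 21 called lower, 2 higher and a median log2 fold of -0.49, and DESeq2 called 3 lower and 0 higher (2 higher at unadjusted p under 0.05). The list summed to 25777 CPM in members and 26457 CPM in zero adipocytes of replicate 1 and to 15524 and 16353 CPM in replicate 2. The sum of the list thus differed little between the classes of each library, although 7 of its genes were called lower. Igf1 was at 284 and 559 CPM in replicate 1 and 242 and 513 CPM in replicate 2 (log2 fold -1.07, SE 0.17, adjusted p = 1.6e-08, lower in 2 of 2 libraries). The adipokines Lep and Retn, named after their values were seen, each had a log2 fold of -0.64 and Adipoq of -0.49 (adjusted p = 0.00284, 9.1e-04 and 0.0386, each in 2 of 2 libraries), and DESeq2 called Retn of the 3. Nampt and Angptl4 were the 2 called higher (log2 folds 0.81 and 0.93, adjusted p = 2.0e-04 and 0.0159, each in 2 of 2 libraries), and DESeq2 called neither. Lpl, the lipoprotein lipase, was at 4855 and 5142 CPM in replicate 1 and 2544 and 2429 CPM in replicate 2 and was not called (log2 fold -0.04, adjusted p = 0.972).

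Most adipocyte transcription factors did not pass, with 4 of 27 called higher, 1 lower and a median log2 fold of -0.07, and DESeq2 called 3 higher and 0 lower (also 0 lower at unadjusted p under 0.05). The 1 lower gene was 3.70% of those tested, near the 3.35% of all genes. Pparg, the master regulator of adipocytes, was at 3684 and 3862 CPM in replicate 1 and 4754 and 4779.7 CPM in replicate 2 (log2 fold -0.07, SE 0.15, adjusted p = 0.941). Beside Ppara and Nr4a1, the called genes were Cebpb (log2 fold 1.22, adjusted p = 1.6e-07), Esrra, a relative of Esrrg (log2 fold 1.15, adjusted p = 2.1e-05), and, lower, Klf15 (log2 fold -0.74, adjusted p = 0.039), each in 2 of 2 libraries. Nr4a1, called higher (log2 fold 3.03, adjusted p = 0.0101), had 26 UMIs in members and 3 in zero adipocytes, a ratio of 8.66 (95% counting interval 2.66 to 44.7). Pparg was thus not called, while Ppara and Esrra were among the 4 genes called higher. Of the 15 adipocyte genes that the study names, which were chosen by the study on libraries that include these and are not independent evidence, 4 were called higher and 5 lower, among them Eepd1 (log2 fold -1.44, adjusted p = 1.1e-14, 2 of 2 libraries). Secreted factors gave 3 of 18 higher and 3 lower (median -0.03), with Slit3, an axon-guidance ligand, lower (log2 fold -0.91, adjusted p = 1.9e-06, 2 of 2 libraries). Immediate early and heat shock genes, which can rise during handling of tissue, gave 2 of 7 higher and 0 lower by edgeR (3 and 0 at unadjusted p under 0.05, 0 and 0 by DESeq2), with a median of 0.16. Lists overlap in part, and among tested genes the thermogenic list shares Pdk4, Gk, Plin5, Adrb1, Ppara, Esrra, Nrg4, Fgf21, Cox7a1 and Cox8b with others.

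**Figure D3:**
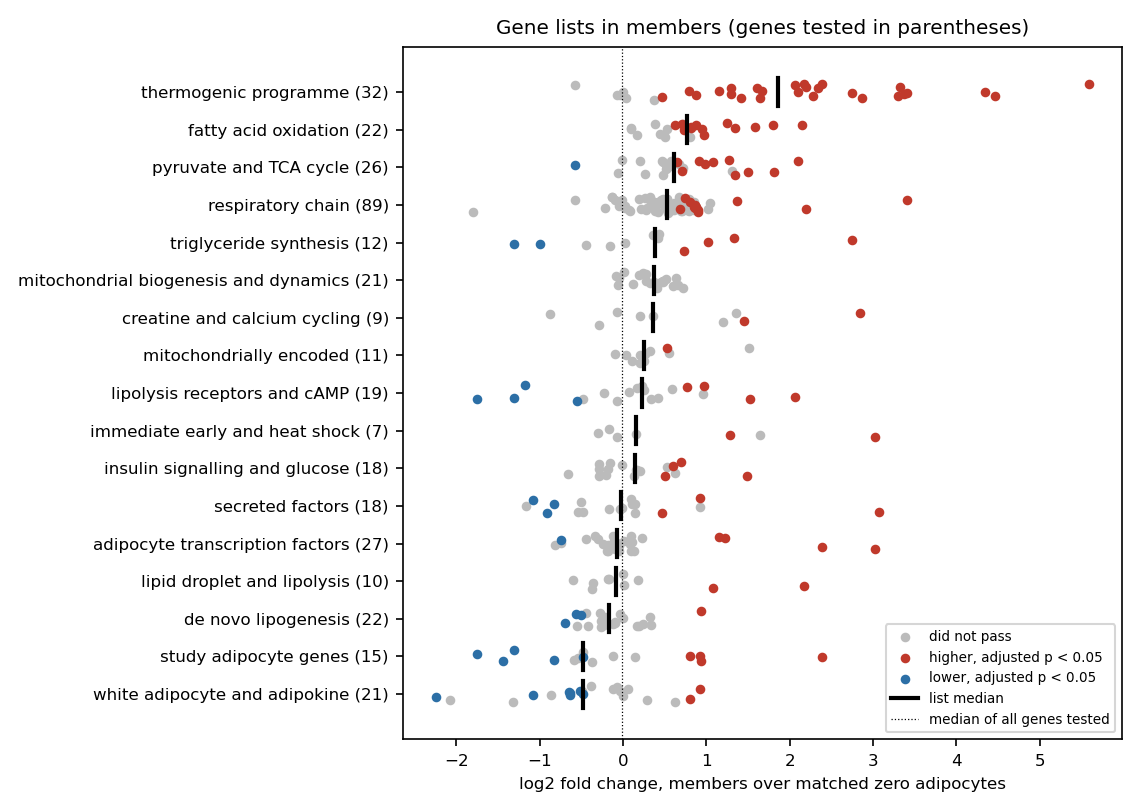
Each point is the log2 fold of a tested gene in members over paired zero adipocytes, with the list's median as a black bar and genes with an adjusted p under 0.05 in colour. Of the lists drawn, which leave out the markers of other cell types, the thermogenic programme has the highest median, 1.86, and the white adipocyte list the lowest, -0.49. Fabp3 is drawn at its lower bound of 3.32.

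Levels were also read by the number of choosing UMIs. The list of thermogenic genes stood at 2624 CPM in adipocytes of replicate 1 with 0 choosing UMIs, 3012 with 1, 3475 with 2, 4152 with 3 or 4, 6141.5 with 5 to 9 and 7179 with 10 or more. In replicate 2 the same classes stood at 3540, 3807, 4473, 4949, 6439 and 9211 CPM. Just outside and just inside the threshold, at 2 and at 3 or 4 UMIs, the levels were thus next to each other, and the rise went on inside the members. Ntrk3 went from 64.6 CPM at 0 UMIs through 490 at 2 and 575 at 3 or 4 to 2068 at 10 or more in replicate 1, and from 80.2 through 274 and 445 to 1690.5 CPM in replicate 2. Tshr went the other way, from 1402 CPM at 0 UMIs and 1439 at 1 through 667 at 2 and 688 at 3 or 4 to 167 CPM at 10 or more in replicate 1, and from 1297 and 1097 through 892 and 670.0 to 295 CPM in replicate 2. In replicate 1 the fall of Tshr thus began only at 2 UMIs and was not even. The classes differ in depth and hold 1282, 144, 40, 29, 32 and 19 nuclei in replicate 1 and 4204, 670, 203, 136, 99 and 129 in replicate 2. No test was made across these classes.

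**Figure D4:**
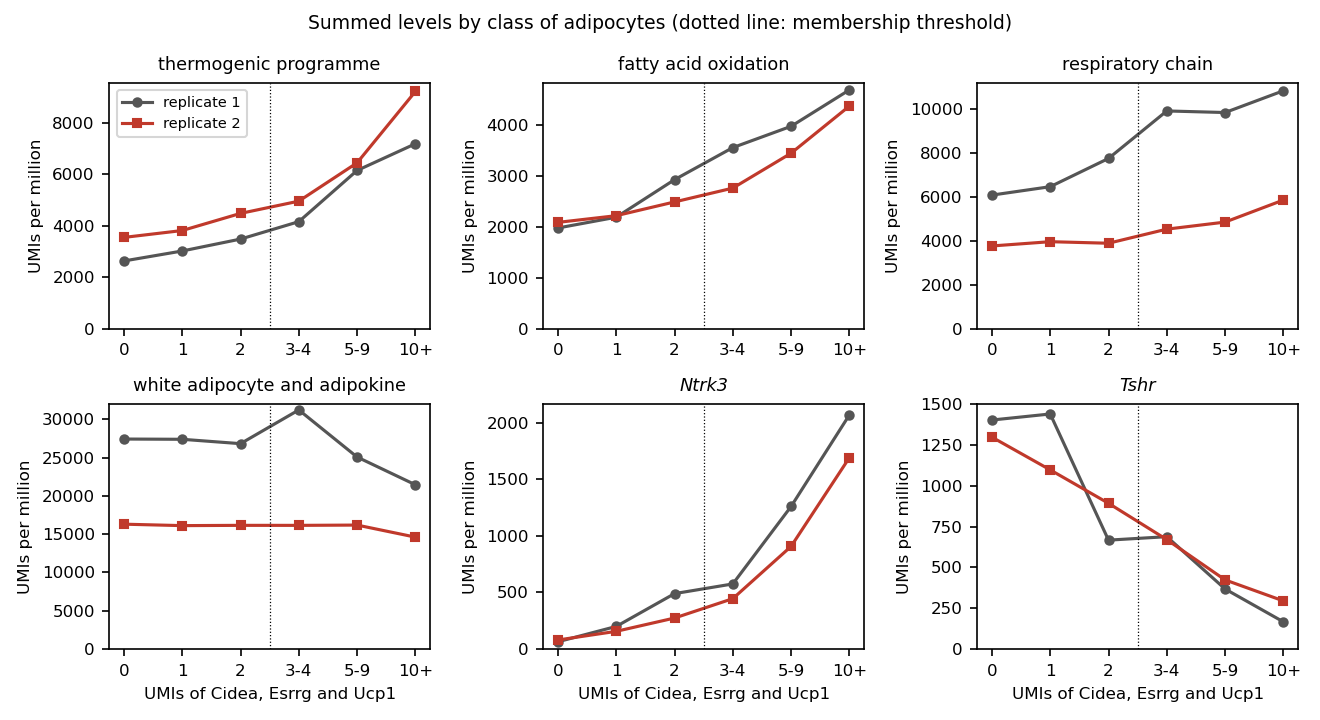
Each panel plots the summed level in CPM of a gene list or gene against the number of Cidea, Esrrg and Ucp1 UMIs, by library, with a dotted line at the threshold of membership. The thermogenic programme rises from 2624 to 7179 CPM in replicate 1 and from 3540 to 9211 CPM in replicate 2.

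On average, members also lay near each other in genes the rule did not use, mainly those with more choosing UMIs. Principal components were computed within each library from paired members and zero adipocytes, without the 17 genes of the rule, and the 20 nearest neighbours of each nucleus were read, with 50% members by construction of the pairs. The mean share of members among the neighbours was 62.3% for members and 34.2% for zero adipocytes in replicate 1 and 70.6% and 19.8% in replicate 2. Members with 3 or 4 choosing UMIs had 50.4% and 48.6%, those with 5 to 9 had 65.8% and 68.3%, and those with 10 or more had 73.4% and 95.6%. Members with 3 or 4 choosing UMIs thus had shares near the 50% set by the pairs and did not lie mostly among members. Their shares were between those of zero adipocytes and those of members with more choosing UMIs. After thinning to 1000 UMIs, members held on average 6.41 and 6.97 UMIs of the thermogenic list and zero adipocytes 2.78 and 3.48. Nuclei are not replicates, and no test was made.

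**Figure D5:**
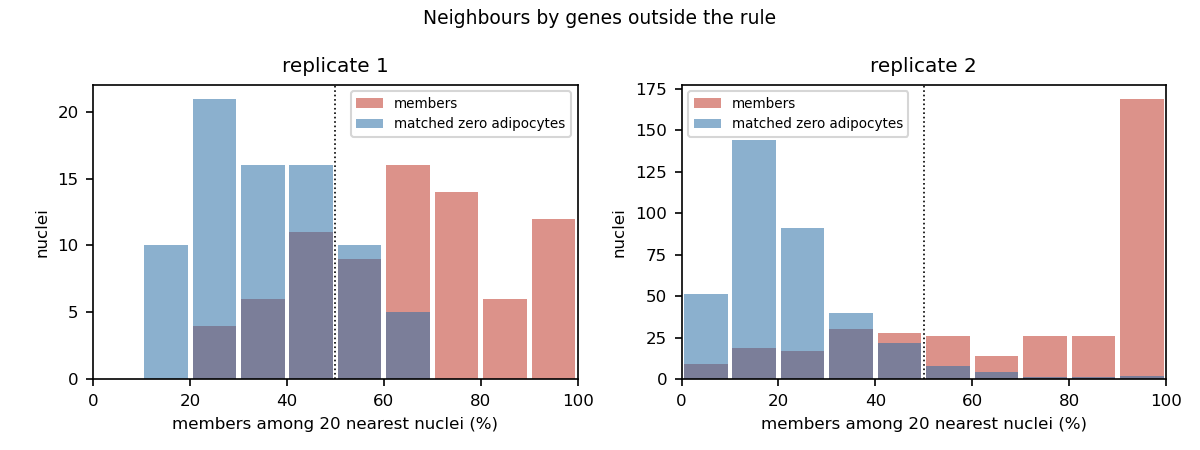
Each histogram counts nuclei of 1 library by the percent of members among their 20 nearest neighbours in genes outside the rule, with a dotted line at 50%. In replicate 2 many members lie near 100%, others reach down to the lowest bin, and most zero adipocytes lie below 50%. There 66.5% of members and 2.75% of zero adipocytes have over 50%. In replicate 1, where the classes overlap more, these shares are 64.1% and 16.7%.

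Receptors of the Esrrg family bind the letters TCAAGGTCA, so the 250 bases before the start of each gene were searched for this motif and for its core AAGGTCA, which it contains, on both strands. A window was found for 10467 of the 10494 genes (genome GRCm39, starts from GENCODE vM39). The longer motif was in 2 of 366 genes higher in members (0.546%, 0.0662% to 1.96%), in 0 of 351 lower genes (0% to 1.05%) and in 32 of 10467 genes tested (0.306%). The core was in 18 higher genes (4.92%, 2.94% to 7.66%), 10 lower genes (2.85%, 1.37% to 5.18%) and 331 genes in all (3.16%). Both intervals for the higher genes hold the share of all genes, so neither motif was detectably more frequent. The 2 genes with the longer motif were Grk3, a receptor kinase (log2 fold 1.67), and Aifm2, an oxidoreductase (log2 fold 0.73), which were named after their values were seen. The stretches of Grk3 (chr5:113163875-113163949, minus strand) and of Acacb, the carboxylase described above (chr5:114284174-114284280, plus strand), are shown as examples of the longer motif and of the core upstream of genes higher in members, 5′ to 3′ on the gene's strand. Capitals mark the motif, which in both lies on the opposite strand and so reads as its reverse complement, and a match is no evidence of binding.
Grk3: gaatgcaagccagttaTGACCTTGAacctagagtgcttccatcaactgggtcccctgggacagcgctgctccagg
Acacb: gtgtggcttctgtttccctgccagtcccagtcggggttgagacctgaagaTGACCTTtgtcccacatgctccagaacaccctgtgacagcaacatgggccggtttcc

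Markers of other cell types were read in the same pairs through 9 lists with 84 genes outside the rule. Of these 34 were tested, and 0 were called higher and 2 lower by edgeR. None was higher at an unadjusted p under 0.05, and DESeq2 called 0 higher and 1 lower. The lower genes are of the Schwann and neuronal list, whose most abundant gene, Scn7a, was at 312 and 318 CPM in replicate 1 and 253 and 462 CPM in replicate 2 (log2 fold -0.57, adjusted p = 0.018, 2 of 2 libraries), a difference mostly of replicate 2. That list summed to 472 and 657 CPM in members and zero adipocytes of replicate 1 and 522 and 955 CPM in replicate 2. Skeletal muscle markers, which share oxidative genes with brown fat, summed to 477 and 506 CPM and to 539 and 520.5 CPM, nearly all from Myl1. Muscle markers thus differed little between the classes in either library.

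The remaining lists were small in both classes. Progenitor (FAP) markers, led by Dcn, summed to 329 and 377 CPM in members and zero adipocytes of replicate 1 and 161 and 166 CPM in replicate 2, macrophage and dendritic markers, led by F13a1, to 203 and 134 CPM and to 84.7 and 99.7 CPM, and smooth muscle and pericyte markers, led by Cspg4, to 157 and 100.3 CPM and to 106 and 115 CPM. Endothelial markers, led by Mecom, summed to 71.5 and 62.1 CPM and to 74.2 and 57.0 CPM, mesothelial markers, led by Wt1, to 28.6 and 31.0 CPM and to 21.0 and 18.5 CPM, lymphocyte markers, led by Skap1, to 23.8 and 38.2 CPM and to 24.1 and 21.3 CPM, and epithelial markers, led by Trp63, to 21.5 and 19.1 CPM and to 31.5 and 60.2 CPM. The epithelial markers Krt14, Krt5 and Epcam had 0 UMIs. Macrophage and smooth muscle sums were higher in members of replicate 1 and lower in replicate 2, and their part in the results was not tested.

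Of 90 genes followed by name, 84 were called. DESeq2 gave an adjusted p for 73 of these and 21 of the 73 lost the call, while of the 84 the call was lost by 29 with the mitochondrial limit of 5% and 57 without the library as a block, with the direction kept in each. With 2 mice of 1 age, no value here describes how the share or the levels of these nuclei vary between animals beyond this pair.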

How the data were processed

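The deposited matrices hold counts, whole UMIs per gene and called barcode of 56980 gene rows, which the authors made with CeleScope on GRCm39; their annotation version is not stated. Python 3.11.15 (numpy 2.4.6, scipy 1.17.1, pandas 2.3.3, scikit-learn 1.9.0, matplotlib 3.10.9) and R 4.3.3 (edgeR 4.0.16, limma 3.58.1, DESeq2 1.42.0) were used. Members and zero adipocytes were paired within a library by total UMIs, within 10%, with seed 1. UMIs were summed into 4 sums and tested with edgeR's quasi-likelihood F test (TMM, filterByExpr), with Benjamini-Hochberg adjustment over all genes tested. The library was a block because both classes came from the same animals. The 17 genes of the rule stayed in the totals and out of the test. A symbol with more than 1 identifier was read from the one with the most UMIs. Neighbours came from 16 components of 1000 variable genes. Thinning drew 1000 UMIs per nucleus without replacement. Positions came from GENCODE vM39, which held all 563 genes looked up.

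Genes named are those of the rule, up to 4 called and 2 uncalled examples of a list by fold and by level, and the 15 leading in each direction (at least 20 CPM in the higher class and the same direction in both libraries, without predicted or clone names); others are said to be named after their values were seen. Members and lists were chosen with earlier results of these data known. The split at 10 UMIs was made after seeing the data. Alternatives were DESeq2, no filter, no block, no pairing, thinning, pairing also by mitochondrial share, other limits on choosing UMIs, mitochondrial share and other markers, leaving out the deepest 5% of adipocytes, and a minimum log2 fold. Sums hold 419402 and 418709 UMIs (members and zero adipocytes, replicate 1) and 2858545 and 2858531 UMIs (replicate 2), so rare transcripts are read mostly in replicate 2.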

Additional observations from a re-analysis of the deposited data

Results flagged for a closer look

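The choosing genes also appeared in nuclei that the comparisons leave out. Among kept nuclei that were not adipocytes by the rule, 28 of 1287 in replicate 1 and 110 of 6784 in replicate 2 had at least 3 UMIs of Cidea, Esrrg and Ucp1. Nuclei of other types also carried UMIs of Esrrg, and whether such counts come from free RNA or from expression was not tested. They held 68, 87 and 31 UMIs of the 3 genes in replicate 1 and 134, 364 and 52 in replicate 2. In replicate 1, 20 of the 28 had under 10 UMIs of the adipocyte genes and 10 had over 2 UMIs of the markers of other cell types, with 2 in both conditions, and in replicate 2 these were 72, 57 and 19 of the 110. Their median depth was 1856 and 2259.5 UMIs, below that of the members. What these nuclei are was not tested.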

How the results depend on the processing

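The numbers of genes higher and lower in members, 366 and 352, fell to 118 and 117 with DESeq2, to 44 and 13 without the library as a block, to 219 and 204 with members at 2 or more UMIs, to 125 and 94 with a mitochondrial limit of 5%, to 191 and 179 with 0 UMIs of other markers and to 232 and 195 with a log2 fold of at least 1. Without matching for depth the number higher rose to 625. The limits on mitochondrial share and other markers left fewer nuclei, and a minimum fold can only remove genes; for the others the cause was not tested. No filter, thinning, matching also by mitochondrial share, 5 or more UMIs and leaving out the deepest 5% of adipocytes kept both numbers within 1.5 times. Every gene called in the reported fit and tested in the alternative kept its sign, other than 2 higher and 2 lower genes with thinning. The mean share of members, 5.93%, was 9.09% with 2 or more UMIs and 3.74% with 5 or more, as the threshold itself moves, 1.31% after thinning, which lowers the depth at the same threshold, and 5.17% to 6.69% in leave-one-out. Esrrg and Ucp1 in Cidea-chosen nuclei and Cidea in Esrrg-chosen nuclei kept their direction under each alternative with a test, and were 4.85 to 5.88, 4.63 to 5.75 and 4.25 to 4.59 in leave-one-out. With 1 library there is no replication, so no test and no count of calls could be given there. For the 90 genes followed by name, in the alternatives with a test, 790 values stayed on their side of the threshold with their direction, 181 kept their direction and lost the call, and 1 reversed, Pparg, which was at -0.07 as reported and at 0.00114 after thinning and was called in neither. Depth limits the rare transcripts, such as Fabp3 with 30 UMIs.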
